A study of Mus musculus with 6 samples.

Results

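The variable (V) and joining (J) segments of the immunoglobulin light chain loci were examined in RNA-seq libraries of the mouse cerebral cortex. The members were all rows of the files whose gene symbol starts with Igkv, Igkj, Iglv or Iglj, and 173 of the 55421 genes listed met this rule. The kappa locus on chromosome 6 held 100 V genes, 60 V pseudogenes and 5 J segments, and the lambda locus on chromosome 16 held 3 V genes and 5 J segments. The cortices came from 3 male C57BL/6J mice of 6 months and 3 of 24 months, all of WT genotype, fed the same standard diet and killed by cervical dislocation under isoflurane anaesthesia. Each library was made from 1 mouse, so the spread between libraries is that between mice. Mice are called here by the number in their label (10, 11 and 17 at 6 months, 2, 4 and 5 at 24 months), and where 6 values are listed they follow that order.

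A light chain is the smaller of the polypeptides of an antibody. In a developing B cell, 1 V segment is joined to 1 J segment by cutting and rejoining the DNA, and the joined unit is then spliced at the RNA level to a constant segment, Igkc for kappa and one of the Iglc genes for lambda. Each B cell and its descendants therefore transcribe mainly the V segment they joined, whereas a V segment that was not joined has little transcription of its own. B cells and plasma cells are rare in the brain itself and are found mostly in the blood and at its borders.

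The J segments are shown because 1 of them, Igkj5, was among the most counted members. Capitals mark the 12 bases that spell Phe-Gly-X-Gly in any reading frame, the motif shared by J segments. The sequences are those of GENCODE vM21 (GRCm38). Igkj1 to Igkj5 lie on the plus strand at chr6:70722562-70722599, chr6:70722916-70722954, chr6:70723223-70723260, chr6:70723548-70723585 and chr6:70723886-70723923, and Iglj1 lies on the minus strand at chr16:19063225-19063262.
Igkj1: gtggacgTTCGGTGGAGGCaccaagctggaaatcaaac
Igkj2: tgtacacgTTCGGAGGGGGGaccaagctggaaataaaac
Igkj3: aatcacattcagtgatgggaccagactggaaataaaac
Igkj4: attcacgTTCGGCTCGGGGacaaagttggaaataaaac
Igkj5: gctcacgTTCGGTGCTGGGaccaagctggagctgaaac
Iglj1: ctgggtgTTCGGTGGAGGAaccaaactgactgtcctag
The motif was found in 8 of the 10 J segments and on the reverse strand of 0 of them. Igkj3 and Iglj3p did not hold it. Among the first 38 bases of 141504 transcripts of genes that were not members, 0.423% held the motif on the same strand and 0.667% on either strand.

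The last 240 bases of the V exons of Igkv4-55 and Iglv1, the most counted V segments of the 2 loci, are shown with the V exon most similar to each, because the counts of a segment depend on how well its reads can be told from those of its relatives. Capitals mark bases without an identical partner in the alignment of the pair. All 4 stretches lie on the minus strand, at chr6:69607275-69607514 for Igkv4-55, chr6:69304834-69305073 for Igkv4-68, chr16:19085017-19085256 for Iglv1 and chr16:19260401-19260640 for Iglv2.
Igkv4-55: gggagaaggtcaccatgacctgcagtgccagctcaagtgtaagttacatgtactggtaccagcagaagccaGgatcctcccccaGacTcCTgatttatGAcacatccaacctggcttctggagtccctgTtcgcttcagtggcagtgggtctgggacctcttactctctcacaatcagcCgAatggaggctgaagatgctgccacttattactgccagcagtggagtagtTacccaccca
Igkv4-68: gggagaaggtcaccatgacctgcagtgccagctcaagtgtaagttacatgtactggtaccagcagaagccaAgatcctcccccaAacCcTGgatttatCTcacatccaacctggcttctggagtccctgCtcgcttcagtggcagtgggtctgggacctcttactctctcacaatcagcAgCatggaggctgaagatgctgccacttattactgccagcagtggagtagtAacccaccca
Iglv1: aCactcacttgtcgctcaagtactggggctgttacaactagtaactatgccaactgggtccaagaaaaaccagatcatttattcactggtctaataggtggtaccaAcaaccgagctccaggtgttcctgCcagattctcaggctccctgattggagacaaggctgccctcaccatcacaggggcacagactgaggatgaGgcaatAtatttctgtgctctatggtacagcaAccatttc
Iglv2: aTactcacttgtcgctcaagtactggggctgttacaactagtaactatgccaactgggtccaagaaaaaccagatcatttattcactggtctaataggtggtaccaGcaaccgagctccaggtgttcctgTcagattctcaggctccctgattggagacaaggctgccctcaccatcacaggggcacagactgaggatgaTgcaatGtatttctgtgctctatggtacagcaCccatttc
The exons of Igkv4-55 and Igkv4-68 are both 303 bases long over their whole length and were 95.4% identical, with 14 mismatches, 11 of them in the bases shown. The exons of Iglv1 and Iglv2 were 96.4% identical, with 8 mismatches and 3 unpaired bases, and 6 of the mismatches are in the bases shown. Of all windows of 69 bases, the length of a 75-base read after trimming, 65.9% in the transcript of Igkv4-55 and 88.5% in that of Iglv1 occurred in no transcript of another gene. Over the 163 V segments the median was 97.0%, and 7 segments were under 50%.

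The libraries held 29495379 to 36494240 counts, so 1 count was worth 0.0274 to 0.0339 CPM (the count after each library's total is scaled to 1000000). At this depth most segments held a few counts or none, and a count of 0 allows up to 3 counts in that library (counting error only). Intervals given for single libraries also cover counting error only. Fewer genes had a count in the 6-month libraries (33974 to 35651) than in the 24-month libraries (40208 to 43561), although the 6-month libraries were the deeper ones.

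Light chain segments were counted more often in all 24-month cortices than in any 6-month cortex. The 173 members together took 31, 44 and 38 counts in the young adult libraries and 432, 523 and 120 counts in the old ones. This corresponded to 0.926, 1.21 and 1.09 CPM (mean 1.07 ± 0.14, SD, n = 3) against 14.6, 16.2 and 3.66 CPM (mean 11.5 ± 6.83, SD, n = 3). The 2 ages did not overlap, the ratio of the means was 10.7, and mouse 5 lay between the other 24-month mice and the 6-month mice. Without mouse 5 the ratio was 14.3, and without mouse 4 it was 8.52. In bulk tissue, a change in the number of cells of a type and a change in RNA per cell cannot be told apart.

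**Figure D1:**
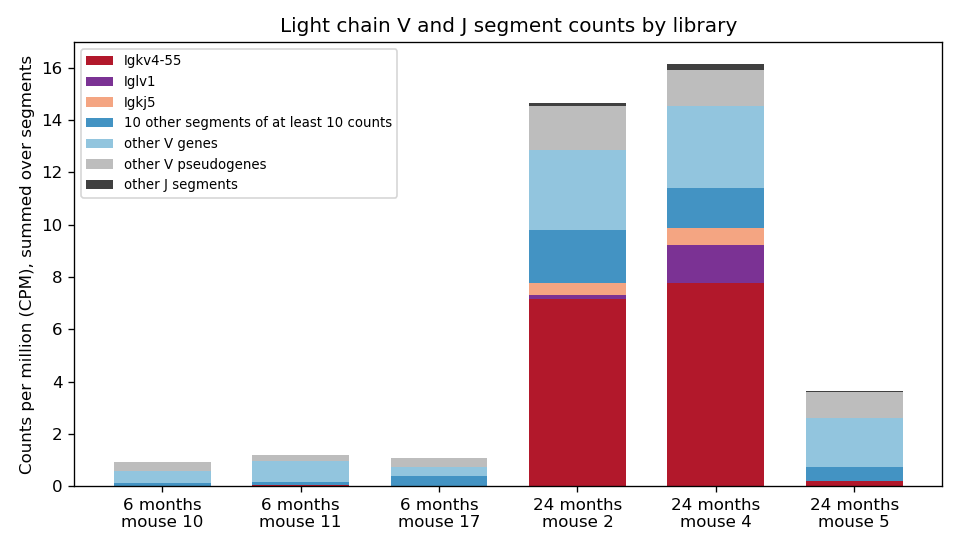
Summed CPM (linear axis from 0) of the light chain V and J segments in each of the 6 libraries, with each bar divided into Igkv4-55, Iglv1, Igkj5, the 10 other segments with at least 10 counts, and the remaining V genes, V pseudogenes and J segments. The bars of 24-month mice 2 and 4 reach 14.6 and 16.2 CPM, of which Igkv4-55 makes up 7.15 and 7.76 CPM, whereas mouse 5 reaches 3.66 CPM and the 6-month mice stay at 0.926 to 1.21 CPM.

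More segments carried counts at 24 months as well. At least 1 count was found on 28, 40 and 28 segments in the 6-month libraries (mean 32) and on 103, 105 and 78 in the 24-month libraries (mean 95.3). The larger part of these segments held exactly 1 count, namely 25, 37 and 24 segments at 6 months and 59, 54 and 53 at 24 months. A minimum of 3 counts was reached by 0, 1 and 2 segments at 6 months and on 20, 22 and 8 at 24 months, and a minimum of 10 counts by 0, 0 and 0 against 4, 6 and 0 segments. At 24 months, 44, 51 and 25 segments held at least 2 counts, against 3, 3 and 4 at 6 months, and counts of 10 or more were found in mice 2 and 4.

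Which segments carried counts differed between the mice. Over the 6 libraries, 11 segments had no count, 70 had counts at both ages, 87 only in 24-month libraries and 5 only in 6-month libraries. The same split was not computed over all genes. More of all genes also had a count at 24 months (40208 to 43561 per library) than at 6 months (33974 to 35651), so the split is not particular to these segments. All 3 24-month libraries shared 28 segments with a count, and all 3 6-month libraries shared 1, the V pseudogene Igkv15-102, which was also the only member with a count in all 6. Of the 39 segments that reached 3 counts in a 24-month library, 7 did so in both mouse 2 and mouse 4 and 1, Igkv4-55, in all 3. The segments that reached 10 counts in both mouse 2 and mouse 4 were Igkv4-55 and Igkj5.

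**Figure D2:**
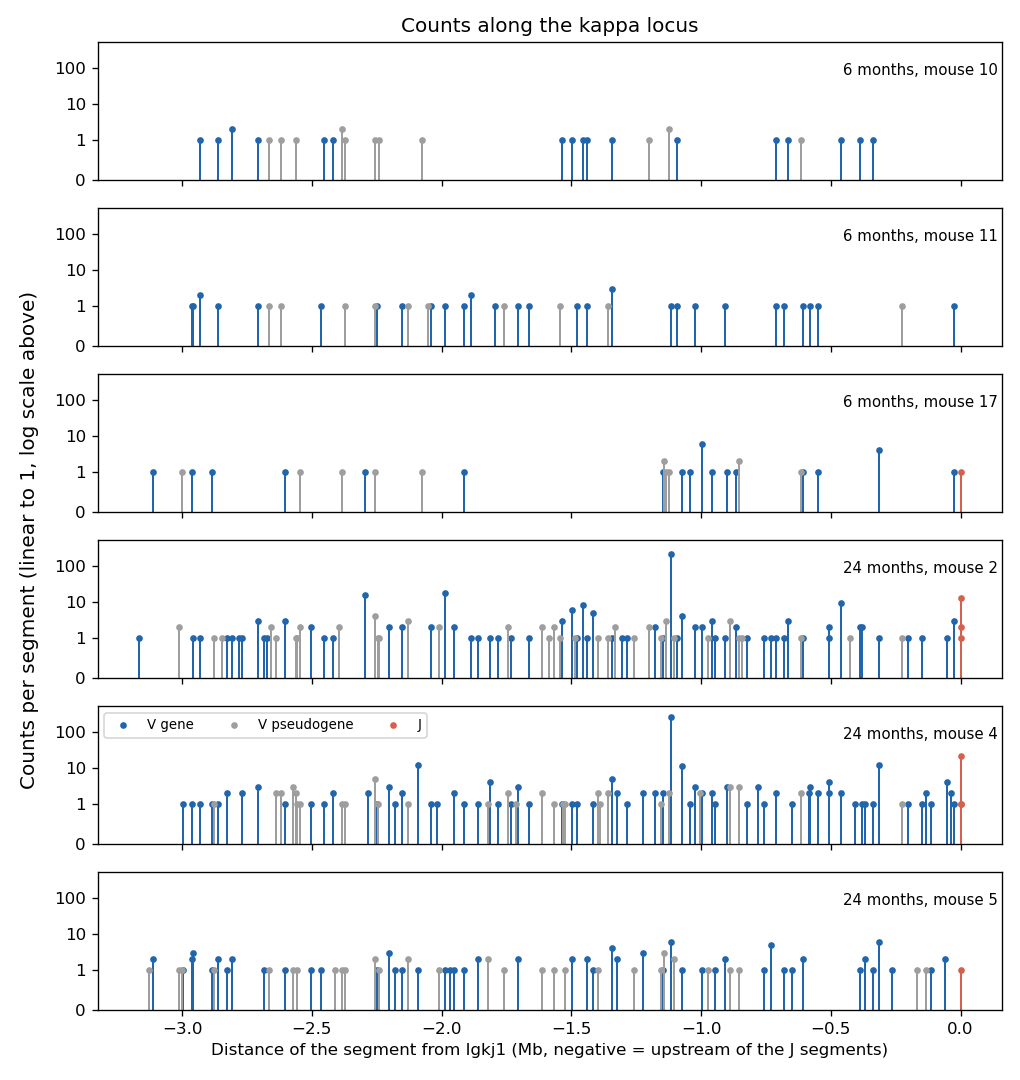
Counts of each kappa V gene (blue), V pseudogene (grey) and J segment (red) against its distance from Igkj1 in megabases, with 1 panel per library and a count axis that is linear up to 1 and logarithmic above. Single counts are scattered over the whole locus in every library, and the panels of 24-month mice 2 and 4 each show 1 V segment above 100 counts (Igkv4-55, 211 and 251) and 1 J segment above 10 (Igkj5, 13 and 21).

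At least 10 counts over the 6 libraries were held by 13 members, which were described one by one and could be tested between the ages. They were 11 V genes, 1 V pseudogene and 1 J segment. With edgeR's quasi-likelihood test and Benjamini-Hochberg adjustment over 32905 genes, 0 of the 13 passed 1% FDR in either direction, as did 0% of all genes tested in each direction. At 10% FDR, 3 of the 13 passed and were higher at 24 months (10.0% of all genes tested were called higher) and 0 were lower (8.33% of all genes). At an unadjusted p under 0.05, 7 of 13 were higher (17.6% of all genes) and 0 lower (13.1%). The likelihood ratio test of edgeR called 3 members higher at 1% FDR (4.41% of all genes) and the Wald test of DESeq2 called 1 (0.579%). The quasi-likelihood test called 1 without a filter on low counts (0.0692%) and 1 without mouse 5 (0.0416%), Igkv4-55 in both. With 1 mouse left out, the 3 members at 10% FDR became 0 without mouse 10, 11, 2 or 4 (0%, 0.00312%, 0.240% and 0% of all genes called higher), 1 without mouse 17 (3.81%) and 6 without mouse 5 (14.0%), so the calls over all genes moved as well. A segment reached 10 counts mainly through the 24-month libraries, which alone favours a change above 0, and the counts among the 13 do not describe all 173.

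Igkv4-55 (ENSMUSG00000096833.2, chr6:69607275-69607828, minus strand) held more counts than any other member in mice 2 and 4 and shared the highest count in mouse 5 with Igkv6-15. It is a V gene of the largest kappa family and lies 1115.29 kb upstream of Igkj1, in the orientation opposite to the J segments, so that its joining inverts the DNA between them. Its counts were 0, 1 and 0 at 6 months and 211, 251 and 6 at 24 months. The ages did not overlap, but mouse 5 stood far below mice 2 and 4. The 24-month mean was 5.03 CPM (SD 4.21, n = 3), and the deposited TPM values, which are per length, were 65.4, 72.8 and 1.77 at 24 months. The log2 fold change was 8.38 (SE 1.60), and the edgeR quasi-likelihood adjusted p was 0.0518. Since the 6-month libraries together held 1 count, the ratio of 518.2 between the ages' summed counts per total had a counting interval of 92.6 to 20510.2. This interval pools the counts of the 3 mice of each age and does not cover the spread between mice. Without mouse 5 the adjusted p by the same edgeR test was 0.000383, and over all alternatives it ranged from 9.06e-07 to 0.166. With 1 mouse left out, the log2 fold change of Igkv4-55 ranged from 7.91 (without mouse 4) to 10.26 (without mouse 11, which held the 6-month count).

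Igkj5 (ENSMUSG00000076608.2, chr6:70723886-70723927) is the J segment nearest to the constant gene. It held 0 counts in all 6-month libraries and 13, 21 and 0 counts in mice 2, 4 and 5. The 24-month mean was at least 4.23-fold higher than the floor of 3 counts per library, and the groups overlapped because mouse 5 held none. The log2 fold change was 6.50 (SE 1.93) and the edgeR quasi-likelihood adjusted p was 0.0788. With 1 mouse left out, the log2 fold change ranged from 5.74 (without mouse 4) to 7.08 (without mouse 5). Per length, its TPM values of 36.3 in mouse 2 and 54.998 in mouse 4 stood next to those of Igkv4-55 and above those of every other segment in these libraries. Igkj5 is shorter than a read, so its values per length cannot be compared directly with those of V segments. In counts, Igkj5 stood below Igkv4-55, Igkv19-93 (18) and Igkv16-104 (15) in mouse 2, and below Igkv4-55 and Iglv1 (47) in mouse 4.

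Other J segments held few counts. Igkj1 held 0, 0, 0, 2, 1 and 1 counts, Igkj2 held 1 count in 6-month mouse 17, Igkj3 held 1 count in mouse 2, and Igkj4 held 1 count in mouse 4. Summed over the kappa J segments, the libraries held 0, 0 and 1 counts at 6 months, against 16, 23 and 1 at 24 months, so Igkj5 made up most kappa J counts in mice 2 and 4 and none in mouse 5. A J segment is 38 to 43 exonic bases long, shorter than the reads, and a read that crossed into a V or constant segment was given by the authors' counting to the gene with the largest overlap. J counts are therefore only part of the reads that crossed a J segment.

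The lambda locus was counted mainly in mouse 4. Iglv1 (ENSMUSG00000076934.2, chr16:19085017-19085500, minus strand), a lambda V gene, held 0 counts in all 6-month libraries and 5, 47 and 0 counts in mice 2, 4 and 5. Its 24-month mean was at least 6.29-fold higher than the floor of 3 counts per library, and the groups overlapped. The log2 fold change was 7.09 (SE 2.43) and the edgeR quasi-likelihood adjusted p was 0.103. Without mouse 4, Iglv1 fell under the 10 counts needed for the test. Iglj1, the J segment that precedes Iglc1, held 5 counts in mouse 4 and 0 in the other 5 libraries. Iglv2 held 0, 1, 0, 2, 1 and 0 counts, and Iglv3 held 1 count in 6-month mouse 11. Iglj3 held 1 count in mouse 4 and Iglj4 1 count in mouse 5, and Iglj2 and Iglj3p held none.

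Of all segment counts, the lambda segments took 0, 2 and 0 at 6 months and 7, 54 and 1 at 24 months. The lambda share was 1.62% in mouse 2 (95% exact binomial interval 0.654% to 3.31%), 10.3% in mouse 4 (7.85% to 13.3%) and 0.833% in mouse 5 (0.0211% to 4.56%). The interval of mouse 4 did not overlap those of mice 2 and 5. At 6 months the share was 4.55% in mouse 11 and 0% in mice 10 and 17, from too few counts to set apart from any 24-month value.

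The other named V segments showed counts that were high in single mice. Igkv19-93 held 0, 1, 0, 18, 0 and 1 counts, and Igkv16-104 held 0, 0, 1, 15, 0 and 0 counts. Both were counted almost entirely in mouse 2. Igkv10-96 held 0, 0, 0, 0, 12 and 1 counts and was counted mainly in mouse 4, as was Igkv4-53 with 0, 0, 1, 4, 11 and 1 counts. Igkv6-23 held 1, 0, 0, 9, 2 and 0 counts, and Igkv4-72 held 1, 0, 0, 6, 1 and 2 counts, both highest in mouse 2. For each of these 6, the lowest 24-month count was at or below the highest 6-month count, so the ages overlapped or tied. The edgeR quasi-likelihood adjusted p was 0.0926 for Igkv4-53 (log2 fold change 3.53, SE 1.21) and 0.151 to 0.218 for the other 5, with log2 fold changes of 2.74 to 5.12. With 1 mouse left out, the log2 fold change ranged from 3.08 to 5.43 for Igkv4-53, 3.02 to 5.36 for Igkv16-104, 3.35 to 5.69 for Igkv19-93 and 2.57 to 4.93 for Igkv6-23, the highest being without mouse 17, 17, 11 and 10, which held the 6-month count. The adjusted p of Igkv4-53 in these fits was 0.0414 without mouse 5 and otherwise at most 0.226.

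A further 4 named segments were counted at both ages. Igkv6-15 held 0, 0, 4, 1, 12 and 6 counts, Igkv4-63 held 1, 3, 0, 1, 5 and 4 counts, and Igkv5-48 held 0, 0, 6, 2, 2 and 1 counts. The ages overlapped for all 3. With 1 mouse left out, the log2 fold change ranged from 1.29 (without mouse 4) to 5.66 (without mouse 17) for Igkv6-15 and from 0.66 (without mouse 17) to 2.42 (without mouse 11) for Igkv4-63. Igkv5-48 was the only named segment with a fitted change below 0 (log2 fold change −0.29, SE 1.19, edgeR quasi-likelihood adjusted p 0.890), and its 6 counts in mouse 17 were the highest count of any member at 6 months. The pseudogene Igkv15-102 held 1, 1, 1, 4, 5 and 2 counts, with the ages apart by 1 count (log2 fold change 1.71, SE 0.74, edgeR quasi-likelihood adjusted p 0.150). Over the 13 named members, the counts of all 24-month libraries were above those of all 6-month libraries for 2, Igkv4-55 and Igkv15-102, as they were in CPM after TMM scaling, where 20.0% of all genes tested were so. None of the 13 was below in all (4.75% of all genes on library totals, 16.3% after TMM scaling). In CPM on library totals 4 were above (30.9% of all genes), since Igkv4-53 and Igkv4-72, with ties of 1 count, were set apart by the totals alone.

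**Figure D3:**
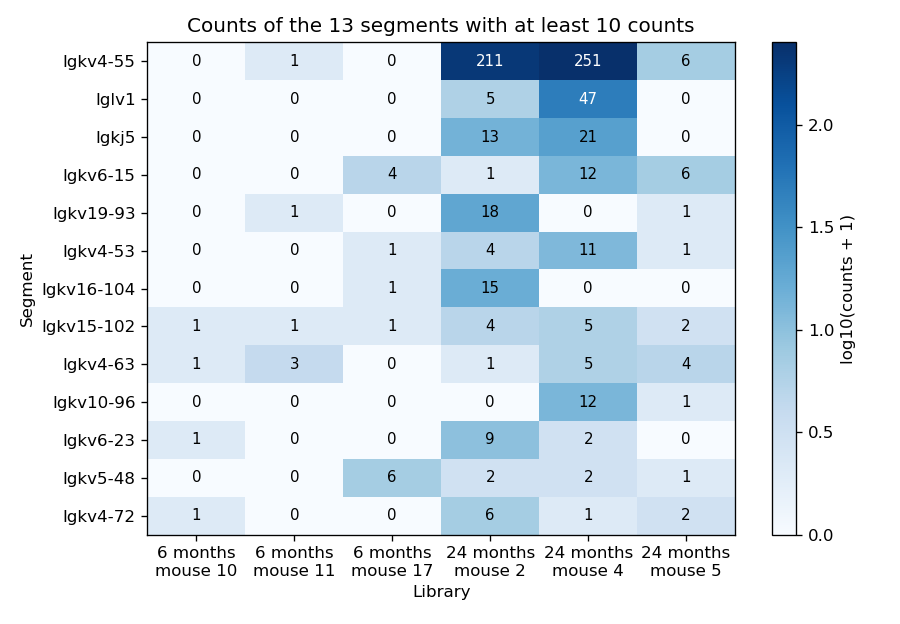
Counts of the 13 segments with at least 10 counts over the 6 libraries (rows, by summed count) in each library (columns), with the colour giving log10(counts + 1). Igkv4-55 has 211 and 251 counts in 24-month mice 2 and 4 and 6 in mouse 5, Iglv1 has 47 in mouse 4, and apart from Igkj5 every other segment is above 10 counts in 1 library at most.

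The concentration of counts on few segments differed between mice of the same age. The most counted segment held 48.8% of all segment counts in mouse 2 (95% exact binomial interval 44.0% to 53.7%), 48.0% in mouse 4 (43.6% to 52.4%) and 5.0% in mouse 5 (1.86% to 10.6%), and it was Igkv4-55 in each, with the same 6 counts as Igkv6-15 in mouse 5. At 6 months the most counted segment held 6.45%, 6.82% and 15.8%, which were 2, 3 and 6 counts. The 5 most counted segments held 25.8%, 20.5% and 39.5% at 6 months and 61.6%, 65.6% and 20.0% at 24 months. In this respect mouse 5 lay near the 6-month mice and apart from mice 2 and 4. With Igkv4-55 left out, the libraries held 0.926, 1.18 and 1.09 CPM at 6 months and 7.49, 8.41 and 3.47 CPM at 24 months, a ratio of 6.06, and the ages still did not overlap.

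By family, as the first number of the symbol gives it, Igkv4 held most kappa V counts in mice 2 and 4. It is the largest of the 20 kappa V families in the files, with 33 segments of which 7 are pseudogenes. Its counts were 6, 12 and 5 at 6 months and 261, 300 and 32 at 24 months, which was 63.8%, 67.3% and 27.1% of the kappa V counts of mice 2, 4 and 5 and 13.5% to 28.6% at 6 months. Without Igkv4-55 the share was 25.3%, 25.1% and 23.2% at 24 months, where 20.6% of the kappa V segments belong to the family. The next families at 24 months were Igkv6 with 13, 19 and 9 counts and Igkv1 with 11, 13 and 14 counts. The Igkv13 family, in which 16 of 18 segments are pseudogenes, held 3, 3 and 3 counts at 6 months, against 13, 11 and 8 at 24 months. The Igkv2 family, in which 7 of 10 are pseudogenes, held 3, 2 and 2 counts against 10, 8 and 4.

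The V pseudogenes, which cannot give a complete light chain, were counted at both ages. The 60 pseudogenes held 13, 10 and 12 counts at 6 months, against 54, 49 and 35 at 24 months, on 11, 10 and 10 against 35, 29 and 29 segments. The 103 V genes held 18, 34 and 25 counts at 6 months, against 362, 445 and 83 at 24 months. Per exonic kilobase, the pseudogenes stood at 0.0202, 0.0142 and 0.0179 CPM at 6 months and at 0.0951, 0.0787 and 0.0554 CPM at 24 months, a ratio of means of 4.38. The 92 V genes with under 10 counts, a set chosen by its low counts, stood at 0.0133, 0.0235 and 0.0111 CPM per kilobase against 0.0904, 0.0934 and 0.0551. Per length, these V genes and the pseudogenes thus covered a similar range at each age.

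The same density was measured in receptor genes known mainly from sense organs. The 2058 sensory receptor genes with a known length (olfactory, vomeronasal, taste and trace amine receptors) stood at 0.0197, 0.0222 and 0.0228 CPM per kilobase at 6 months and at 0.0924, 0.0755 and 0.0540 at 24 months, a ratio of 3.44. In edgeR's quasi-likelihood test, 955 of the 1400 tested were higher at an unadjusted p under 0.05 (17.6% of all genes) and 0 were lower (13.1%). The 24-month order of mouse 2, then 4, then 5 held in sensory receptor genes and in light and heavy chain V pseudogenes. In T cell receptor V genes (0.0424, 0.0452 and 0.0326) and in light chain V genes under 10 counts, mouse 4 stood above mouse 2. Mouse 5 was the lowest 24-month mouse in each of these sets. Heavy chain V pseudogenes had means of 0.0176 CPM per kilobase at 6 months and 0.0693 at 24 months, and T cell receptor V genes 0.0122 and 0.0401, with no overlap between the ages. The density of these genes moved with age together with the low segment counts, and its part in them was not tested.

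**Figure D4:**
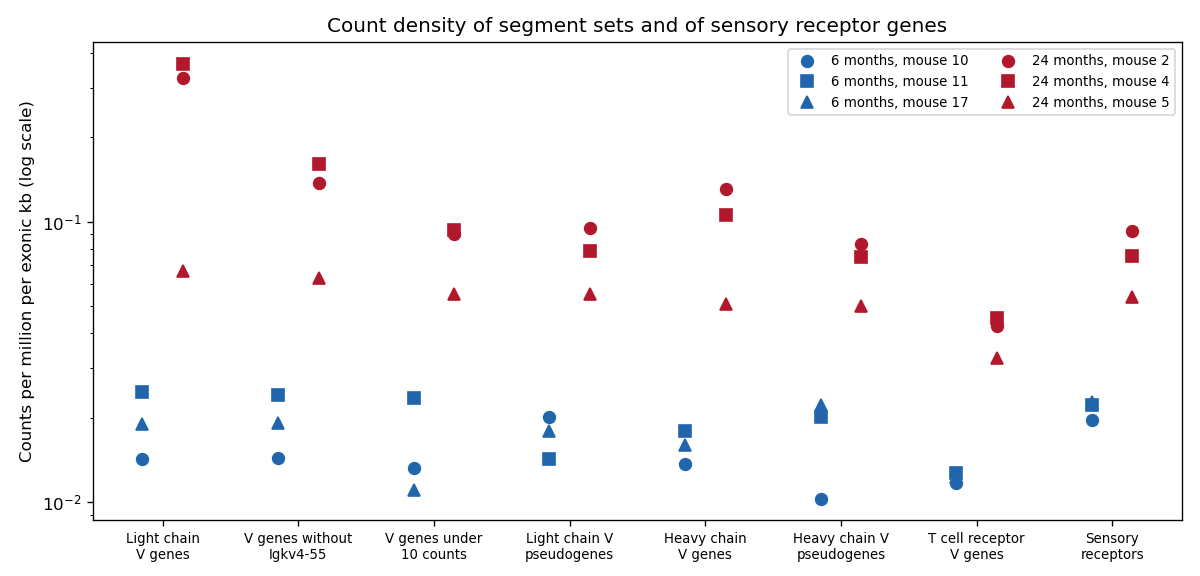
CPM per exonic kilobase (log axis) for sets of light chain, heavy chain and T cell receptor segments and for sensory receptor genes, with 1 point per library (6 months blue, 24 months red, marker shape by mouse). Light chain V genes reach 0.325 and 0.364 in 24-month mice 2 and 4, whereas light chain V genes under 10 counts, light chain V pseudogenes and sensory receptor genes lie at 0.0540 to 0.0951 in all 24-month mice.

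The density of all V genes was above this range in 2 mice. The 103 V genes stood at 0.325 and 0.364 CPM per kilobase in mice 2 and 4 and at 0.0669 in mouse 5, against 0.0142 to 0.0246 at 6 months. Without Igkv4-55 they stood at 0.137 and 0.160 in mice 2 and 4 and at 0.0627 in mouse 5. The J segments stood at 1.38 and 2.28 in mice 2 and 4 and at 0.155 in mouse 5, the last of these from 2 counts. Since J segments are shorter than a read, these densities cannot be compared directly with those of V genes.

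The constant genes, to which the joined segments are spliced, were counted in the same mice. Igkc, the only kappa constant gene, held 4, 6 and 16 counts at 6 months, against 638, 848 and 35 at 24 months. The ages did not overlap, and mouse 5 was again nearest to the 6-month mice (log2 fold change 5.81, edgeR quasi-likelihood adjusted p 0.0518). Kappa V genes held 4.5, 5.33 and 1.56 counts for each Igkc count at 6 months and 0.556, 0.468 and 2.37 at 24 months, so V counts exceeded Igkc counts in all libraries except those of mice 2 and 4. Iglc1, the constant gene downstream of Iglj1, held 0, 1, 1, 2, 48 and 4 counts and was highest in mouse 4, as were Iglv1 and Iglj1 (edgeR quasi-likelihood adjusted p 0.0825). Iglc2 held 1, 0, 2, 9, 10 and 4 counts, Iglc3 0, 0, 0, 5, 7 and 2, and Iglc4 0, 1, 0, 0, 1 and 1. Of the 5 light chain constant genes, 4 were tested. All 4 were higher at an unadjusted p under 0.05 (17.6% of all genes) while 0 passed 1% FDR.

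Heavy chain V genes together held 19, 27 and 23 counts at 6 months, against 159, 141 and 69 at 24 months. Ighv1-53, the most counted of them, held 0, 0, 1, 26, 47 and 0 counts. The next, Ighv2-9-1, held 1, 0, 2, 8, 2 and 2 counts, so mouse 4 was not in front in it. Ighm, the constant gene of IgM, held 3014, 3027 and 1880 counts at 6 months, against 918, 2539 and 3262 at 24 months, an order in which mice 2 and 4 were not in front. Igha, the constant gene of IgA, held 0, 2, 5, 8, 17 and 7 counts. Ighg2c held 396, 374, 288, 311, 437 and 445 counts (log2 fold change 0.12). Of the 8 heavy chain constant genes, 7 had enough counts for the quasi-likelihood test. At an unadjusted p under 0.05, Igha, Ighg3 and Ighd were higher (17.6% of all genes) and 0 were lower (13.1%). At 1% FDR, 0 passed. In CPM on library totals, 5 of the 8 had all 24-month libraries above all 6-month libraries (30.9% of all genes).

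Each library held counts of markers of the cells that express light chains, though single markers had no count in some libraries. In CPM on library totals, 9 of the 12 B cell markers were higher in all 24-month libraries than in any 6-month library (30.9% of all genes). In edgeR's quasi-likelihood test, 6 passed an unadjusted p under 0.05, all higher (17.6% of all genes), and 0 passed 1% FDR. Non-overlap after TMM scaling, which 20.0% of all genes showed, was not computed for these markers. Their summed level was 8.54 to 9.79 CPM at 6 months and 13.1 to 16.0 CPM at 24 months, most of it from Ebf1, which other cells also express, and no marker was at 0 in all libraries of an age. Ms4a1, the B cell surface protein CD20, held 1, 2 and 4 counts against 28, 23 and 14 (log2 fold change 3.11, edgeR quasi-likelihood adjusted p 0.0518). Cd79a and Cd79b, which carry the signal of the B cell receptor, held 1, 6, 6, 6, 14 and 12 counts and 9, 6, 14, 19, 19 and 19 counts. Mouse 5 held fewer Ms4a1 counts than mice 2 and 4 but the same number of Cd79b counts, and its summed level of 16.0 CPM, the highest of the 6, included 11.1 CPM of Ebf1.

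Of the 12 plasma cell markers, 11 had enough counts for the quasi-likelihood test. At an unadjusted p under 0.05, 3 were higher (17.6% of all genes) and 2 lower (13.1%), and 0 passed 1% FDR. Their summed level, dominated by genes that other cells use, was 277.8 to 330.7 CPM at 6 months and 248.7 to 284.7 CPM at 24 months. No plasma cell marker was at 0 in all libraries of an age. Jchain, which links the units of polymeric IgA and IgM, held 10, 8 and 20 counts at 6 months, against 55, 76 and 29 at 24 months and followed the order of Igkc among the 24-month mice (log2 fold change 2.02, edgeR quasi-likelihood adjusted p 0.0518). The 2 lower markers were Derl3, which serves in the disposal of misfolded secretory proteins, with 35, 32 and 56 counts against 22, 24 and 18 (log2 fold change −0.98), and Xbp1, a transcription factor of secretory cells, with 7562, 9606 and 8353 counts against 6945, 7112 and 5950 (log2 fold change −0.39). The part of B cell and plasma cell numbers in the segment counts was not tested. Of 5 tested genes of V(D)J recombination and the surrogate light chain, 2 were higher at an unadjusted p under 0.05 (17.6% of all genes). They were Rag1 with 9, 4, 14, 38, 16 and 20 counts and Dntt with 3, 2, 5, 12, 10 and 10 counts.

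The labelled tissue was checked against its markers. At an unadjusted p under 0.05 in edgeR's quasi-likelihood test, 17.6% of all genes were higher and 13.1% lower. Neuronal markers summed to 7559 to 8641 CPM at 6 months and 6550 to 7976 CPM at 24 months, with 0 of 6 higher and 3 lower at an unadjusted p under 0.05. Markers of tissues next to the cortex overlapped between the ages, with 17.8 to 41.9 against 22.4 to 48.4 CPM for choroid plexus and 26.7 to 62.2 against 29.8 to 83.4 CPM for meninges, and 0 of 12 of these markers passed an unadjusted p under 0.05. Oligodendrocyte markers differed between mice more than between ages, with 2503, 3257 and 2060 CPM at 6 months and 1252, 3019 and 3930 CPM at 24 months, and the 24-month order of mouse 2, 4 and 5 was that of the Ighm counts. Astrocyte markers were at 1609 to 1722 against 1773 to 1838 CPM, microglia markers at 386.0 to 396.6 against 425.6 to 445.4 CPM, and endothelial markers at 118.1 to 133.7 against 97.0 to 172.4 CPM. These sums are on library totals. In edgeR's test, which used TMM scaling, 1 astrocyte marker was higher and 1 lower at that threshold, as for microglia markers. The median log2 fold change was −0.16 for astrocyte and −0.07 for microglia markers. Red blood cell markers were at 70.9 to 92.5 CPM against 62.7 to 83.0 CPM, with 0 higher and 3 lower. Of the 12 T cell markers, 5 were higher and 0 lower at that threshold. In CPM on library totals, 7 were higher in all 24-month libraries than in any 6-month library (30.9% of all genes). The summed level of the T cell markers was 22.3 to 25.4 against 23.1 to 28.6 CPM. Most of it came from Trbc2, at 16.4 to 19.6 CPM over the 6 libraries (log2 fold change −0.24).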

How the data were processed

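Libraries were made from 3 cortices of 6 months and 3 of 24 months with a low-input RNA kit and sequenced as single reads of 75 bases. The authors trimmed the reads (Trim Galore 0.6.4), mapped them to GRCm38 with STAR 2.7.3a and counted them on exons with featureCounts (Subread 2.0.0), giving a read to the gene with the largest overlap above a minimum mapping quality. The authors deposited counts (100% whole numbers) and TPM values computed from the counts and gene lengths, for 55421 genes. Reads that map to several places have a low mapping quality, so reads shared by near-identical V segments can be lost. The counting is not stated to use strand in the sources used here. Counts of 1 V segment, which shares 301 exonic bases with Gm42889, and of Iglj2, which lies within an exon of Iglc2, are uncertain. In all, 11 members overlap another gene. The Igkj segments overlap Gm30211, and Iglv1, Iglj1, Iglj3 and Iglj3p overlap 2010309G21Rik, with 0 shared exonic bases. Gm30211 held 2, 1, 2, 9, 11 and 1 counts, and 2010309G21Rik held 0, 1, 0, 1, 1 and 0. The symbols of all 173 members matched GENCODE vM21 (GRCm38), and for the 162 with a count the length implied by TPM was within 1% of the annotated exonic length.

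Ages were compared with the quasi-likelihood test of edgeR 4.0.16 in R 4.3.3, after TMM scaling and a minimum of 10 counts over 6 libraries, with Benjamini-Hochberg adjustment over all genes, at 1% FDR, with 10% and an unadjusted p of 0.05 beside it. The script was tested on simulated data. DESeq2 1.42.0 and the other settings were alternatives. Intervals are 95% exact binomial or conditional binomial intervals. Named segments were those with at least 10 counts, all J and lambda segments, and the constant genes, and other genes where needed. Ighv1-53, Ighv2-9-1, Ighm, Ighg2c, Ighg3 and Ighd were added after their values were seen. Members and lists were chosen with earlier results of these data known. Sums over members received no p-value, since the members share loci.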

Additional observations from a re-analysis of the deposited data

How the results depend on the processing

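The count of segments called higher at 1% FDR (0 with edgeR's quasi-likelihood test) was 3 with edgeR's likelihood ratio test, 1 with the Wald test of DESeq2, which gave no adjusted p for 11 of the 13 members, 1 without the filter on low counts, where 162 members were tested and 0.0692% of all genes were called higher, and 3 at 10% FDR. With each mouse left out in turn it ranged from 0 to 1, and the 1 was Igkv4-55 without 24-month mouse 5, where 0.0416% of all genes were called higher. Under edgeR's filterByExpr 0 members passed the filter, so no value was obtained. The count called lower was 0 in all settings run. TMM moved the median log2 fold change of all genes from 0.34 with library totals to 0.15. No named segment changed sign in the settings where it was tested, but Igkv5-48, whose 6-month counts all came from mouse 17, was not tested without that mouse, nor were other segments once they fell under 10 counts. With at least 3 counts in place of 1, the mean number of segments counted was 1 at 6 months and 16.7 at 24 months. The mean summed level was 12.5 and 149.1 as TPM, and at 6 months it was 0.739 CPM without pseudogenes. Without the 13 named segments, a setting added after seeing the data like those without Igkv4-55 and with TMM-scaled non-overlap, it was 0.855 and 4.18 CPM, a ratio of 4.89. Over all these settings the ratio between the ages ranged from 4.89 to 14.3. The lambda share at 24 months was 1.23% without mouse 4, against a mean of 4.26% over 3 mice. These changes follow from the other unit, threshold or set of segments, and the cause of the differences between tests was not tested. Mean ± SD over 3 mice, with 1 of them apart from the other 2 at 24 months, limits the precision, and segments of 1 to 3 counts cannot be told from 0 at this depth. No paired analysis was possible because the groups share no replicate numbers.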
